A study of Mus musculus with 24 samples.

Results

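Splenic regulatory T (Treg) cells that carry KLRG1 on their surface (kTreg cells) were compared with activated (aTreg) and resting (rTreg) Treg cells for 5 genes that are seldom discussed in these cells: *Capn3*, *Ssbp2*, *Dennd2d*, *Evl* and *Igfbp4*. The first 4 were chosen because their values were lower in kTreg than in aTreg cells in all 8 mice, and *Igfbp4* because it was lower in aTreg than in rTreg cells. All 5 were found among the 17464 genes listed, and all 5 were among the 16630 genes tested. The cells came from the spleens of wild-type C57BL/6JRccHsd mice, 4 young (2 months old) and 4 old (26 months old), with no treatment named. rTreg cells were sorted as CD62L+ CD44-, aTreg cells as CD62L- CD44+ and kTreg cells as KLRG1+. Every mouse gave 3 libraries, 1 per subset, which made 24 libraries in 6 groups of 4, and the replicate number marks the mouse.

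Treg cells are CD4+ T cells that hold back immune responses under the control of the transcription factor FOXP3. Resting Treg cells recirculate through lymphoid organs, and activated ones carry more CD44. KLRG1 is a lectin-like surface receptor that binds cadherins and dampens lymphocyte activation. The 5 genes do not form 1 pathway. *Capn3* encodes calpain 3, a calcium-dependent cysteine protease best known from skeletal muscle, and *Dennd2d* encodes a DENN domain protein, a family that activates Rab GTPases of vesicle traffic. *Ssbp2* encodes a single-stranded DNA-binding protein that joins and stabilises the transcriptional adaptor LDB1. *Evl* encodes an Ena/VASP protein that promotes the growth of actin filaments, and *Igfbp4* a secreted protein that binds insulin-like growth factors.

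Values are normalised read counts, the reads of a gene divided by a size factor of its library, with 15045747 to 29521942 reads on listed genes per library. *Klrg1* followed the sort labels. It lay between 16560 and 41560 in kTreg libraries and at or below 357.5 elsewhere. *Foxp3* was between 5079 and 37790 throughout, with the lowest value in old aTreg replicate 2. Its levels differed between groups, with 5079 to 19810 in old aTreg libraries. Young aTreg libraries had 20350 to 25460 and old kTreg libraries 32110 to 37790. Young kTreg replicate 4 stood apart with 4913 genes at 0, against 419 to 2756 in the other libraries. The 3 libraries of young replicate 2 had the highest summed B cell markers (9002 to 18830, all 8 markers listed) of their subsets, and its kTreg library also had the highest summed macrophage and monocyte markers (35000.0). Old rTreg libraries held 10200 to 26800 of the same macrophage markers, against 374 to 592.6 in old aTreg and 2373 to 3678 in old kTreg cells. Most of the old rTreg sum was *Lyz2* (9381 to 25150), and every other marker of the list was at or below 747.2 there. In young kTreg cells, by contrast, *Vcam1* reached 11690 and *Csf1r* 7542.

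*Capn3* differed most between the subsets among the 4 genes chosen on kTreg cells. In young mice it stood at 819.8, 583, 894 and 724 in rTreg cells of replicates 1 to 4, and at 736, 577.5, 668 and 614 in aTreg cells. Young kTreg cells had 101, 110.0, 88.0 and 55.8. The young kTreg values lay far below both other subsets, whereas young rTreg and aTreg cells overlapped. In old mice *Capn3* stood at 414, 443, 585 and 354 in rTreg cells and at 217, 176, 316 and 212 in aTreg cells. Old kTreg cells had 122, 71.2, 80.0 and 86.6, so that the 3 old subsets formed 3 steps with no overlap. The mean log2 difference between kTreg and aTreg cells was -2.90 ± 0.43 (SD, n = 4) in young and -1.34 ± 0.47 in old mice, where log2 differences are taken on log2(value + 1).

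*Ssbp2* was close to level between rTreg and aTreg cells and was low in kTreg cells alone. Young rTreg cells had 2167, 1669, 2555 and 2188 and young aTreg cells 2373, 2082, 2369 and 2119. Young kTreg cells had 567.5, 703, 492 and 405, which did not overlap with any other group. In old mice the rTreg values were 2178, 2067, 1502 and 2237 and the aTreg values 2476, 2263, 2288.5 and 2617. Old kTreg cells had 1271, 1189, 941.5 and 1674, between the young kTreg cells and the other groups, and the highest of them exceeded the lowest rTreg value of either age. The kTreg minus aTreg difference was -2.07 ± 0.36 in young and -0.95 ± 0.26 in old mice.

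*Dennd2d* had the same outline as *Ssbp2*. Its values were 3470.4, 3461, 3699 and 3959.7 in young rTreg cells and 3062, 3457.5, 3108 and 3508 in young aTreg cells. They were 1064, 1273, 1025 and 785.5 in young kTreg cells. The young kTreg group was the lowest of the 6 and overlapped with none. Old rTreg cells had 3810.1, 4988, 3178 and 3821, and old aTreg cells 4033, 5249, 4564 and 4106. Old kTreg cells had 2729, 2726, 1889.8 and 2614, below every rTreg and aTreg library and above every young kTreg library. The kTreg minus aTreg difference was -1.68 ± 0.32 in young and -0.86 ± 0.32 in old mice.

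*Evl* had the highest level per length of the 4 and was lower in kTreg than in aTreg cells of every mouse. Young rTreg cells had 6075, 5099, 7497 and 7486, and young aTreg cells 4652, 5226, 5697 and 6572. Young kTreg cells had 1276, 1701, 1534 and 1803. Old rTreg cells had 6354.5, 4843, 4548 and 5272, and old aTreg cells 4500.1, 4161, 4127 and 4166. Old kTreg cells had 3092, 2383, 1945 and 2946, again between young kTreg cells and the rest, with no overlap on either side. The kTreg minus aTreg difference was -1.81 ± 0.13 in young and -0.73 ± 0.27 in old mice.

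*Igfbp4* followed another order, with the large step between rTreg and aTreg cells. Young rTreg cells had 5511, 4428, 6005 and 7621, and old rTreg cells 4864.5, 4183, 6438 and 6802, 2 groups that overlapped. Young aTreg cells had 1053, 1285, 762 and 1383, and young kTreg cells 759.7, 932, 484 and 211, which overlapped with them. The old activated groups lay lower still. Old aTreg cells had 121, 94.0, 348 and 241, and old kTreg cells 154, 162, 185 and 138, within the aTreg range, and the lowest young kTreg library lay within it too. The aTreg minus rTreg difference was -2.40 ± 0.49 in young and -4.95 ± 0.57 in old mice. The kTreg minus aTreg difference of *Igfbp4* was -1.07 ± 1.09 in young mice, where all 4 mice were lower, and -0.15 ± 0.84 in old mice, where 2 of 4 were lower.

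**Figure D1:**
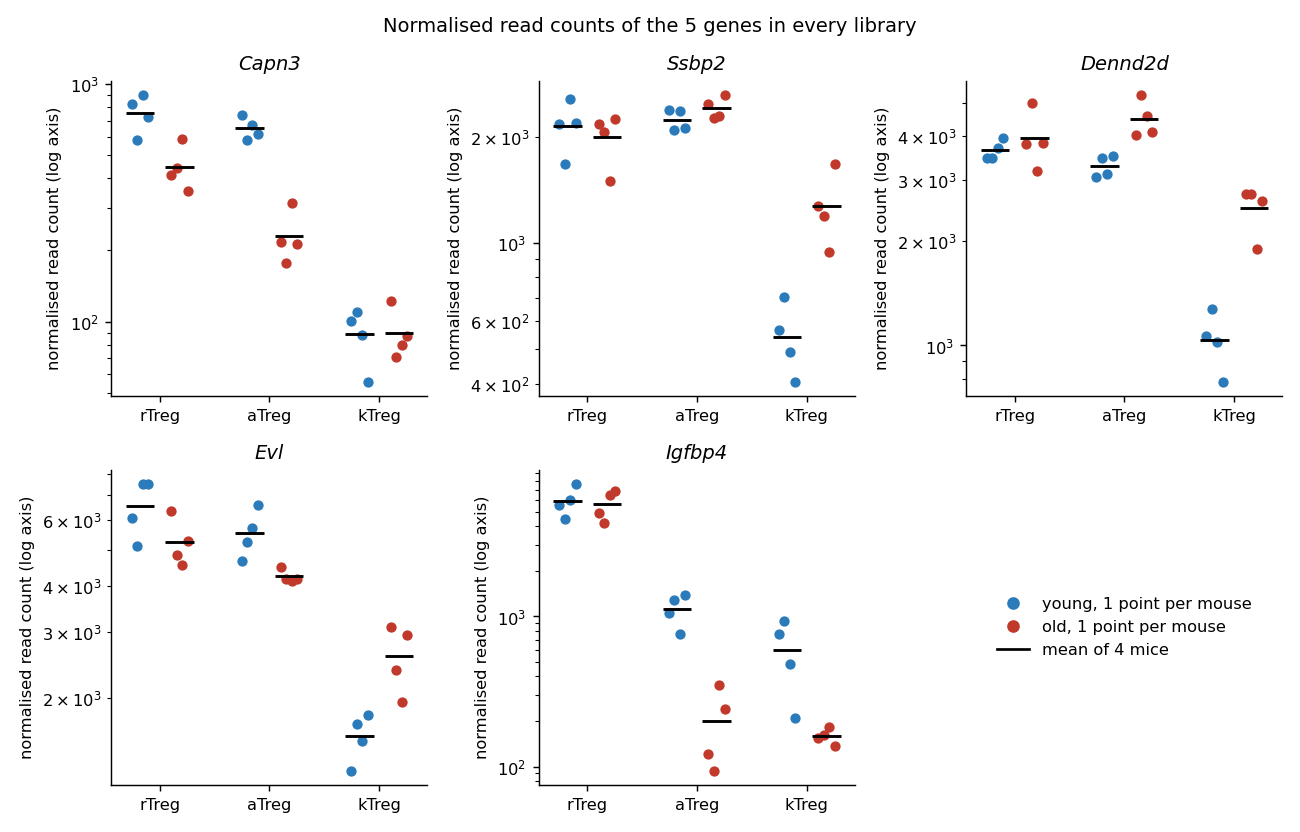
Normalised read counts (log axis) of the 5 genes in rTreg, aTreg and kTreg cells, with 1 point per library, young mice in blue, old mice in red and a black line at the mean of 4. The kTreg points of *Capn3*, *Ssbp2*, *Dennd2d* and *Evl* lie below the aTreg points of the same age, with old kTreg means of 1269, 2489 and 2592 against young means of 542, 1037 and 1578 for *Ssbp2*, *Dennd2d* and *Evl*, while *Igfbp4* drops from rTreg to aTreg cells.

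Levels between genes can be compared only per length. Per kilobase of annotated exon, young rTreg cells had means of 1960 for *Evl*, 1332 for *Igfbp4*, 508 for *Dennd2d*, 187 for *Ssbp2* and 102 for *Capn3*. In young kTreg cells the levels per kilobase were 473 for *Evl*, 144 for *Dennd2d*, 135 for *Igfbp4*, 47.3 for *Ssbp2* and 12.0 for *Capn3*. The order of the genes was thus kept except that *Igfbp4* passed below *Dennd2d*, and those 2 overlapped between young kTreg libraries (47.6 to 211 and 109 to 177). The fewest reads behind any value were 61, for *Capn3* in a young kTreg library.

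These contrasts chose the genes, so they are given with no test. Averaged over the ages, the kTreg minus aTreg log2 difference was -2.12 for *Capn3*, -1.51 for *Ssbp2* and -1.27 for both *Dennd2d* and *Evl*, and the aTreg minus rTreg difference of *Igfbp4* was -3.68. In bulk samples, fewer cells that use a gene and less RNA per cell cannot be told apart. Across all genes, 3.26% were called lower and 4.13% higher in kTreg than in aTreg cells, where a call is an adjusted p below 0.05 with a fold change above 1.5. Between aTreg and rTreg cells 2.78% were called lower and 5.23% higher in aTreg cells. A set of 374 genes was called lower in kTreg cells and was lower in all 8 mice. Ordered by p, the 4 genes held places 2 to 5 behind *Bcl2*, and the next gene outside was *Tcf7*, with a difference of -1.85 against -1.27 for *Evl*, the last inside. Among 244 genes called lower in aTreg cells and lower in all 8 mice, *Igfbp4* held place 2, and the next gene, *Rab3ip*, differed by -1.35.

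All 5 genes lie on the forward strand of GRCm39 in GENCODE M39. *Capn3* (ENSMUSG00000079110) spans chr2:120294048-120338450, *Ssbp2* (ENSMUSG00000003992) chr13:91608402-91854365 and *Dennd2d* (ENSMUSG00000027901) chr3:106389721-106410347. *Evl* (ENSMUSG00000021262) spans chr12:108520930-108654778 and *Igfbp4* (ENSMUSG00000017493) chr11:98932064-98945218. The stretches before the canonical transcript starts of the 4 genes that were lower in kTreg cells are shown because these 4 genes share the choice on kTreg cells. Each runs 5′ to 3′ from 250 bases before the start and ends at the start. It ends earlier where an annotated exon of the same gene begins within it. Capitals mark the motifs found. They are chr2:120293798-120294047, chr13:91608832-91609081, chr3:106389497-106389720 and chr12:108571775-108571975, all on the forward strand of GRCm39. The *Evl* stretch is in an intron of longer *Evl* transcripts, and the *Dennd2d* stretch lies in an exon of the antisense noncoding gene *2010016I18Rik*. The *Ssbp2* stretch also lies within the span of its gene, which begins at 91608402.
Capn3: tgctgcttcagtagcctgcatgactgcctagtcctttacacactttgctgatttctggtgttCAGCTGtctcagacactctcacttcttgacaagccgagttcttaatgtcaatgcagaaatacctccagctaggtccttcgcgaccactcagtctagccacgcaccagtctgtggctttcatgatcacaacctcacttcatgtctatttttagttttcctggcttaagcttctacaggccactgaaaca
Ssbp2: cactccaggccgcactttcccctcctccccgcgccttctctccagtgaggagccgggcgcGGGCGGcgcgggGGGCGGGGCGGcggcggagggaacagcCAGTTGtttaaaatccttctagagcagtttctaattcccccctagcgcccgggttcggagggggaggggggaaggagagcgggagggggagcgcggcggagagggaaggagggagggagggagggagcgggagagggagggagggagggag
Dennd2d: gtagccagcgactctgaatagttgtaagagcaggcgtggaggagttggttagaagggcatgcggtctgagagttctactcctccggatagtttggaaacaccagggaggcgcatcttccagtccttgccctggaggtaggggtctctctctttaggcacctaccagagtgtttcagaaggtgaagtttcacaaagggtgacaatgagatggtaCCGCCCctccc
Evl: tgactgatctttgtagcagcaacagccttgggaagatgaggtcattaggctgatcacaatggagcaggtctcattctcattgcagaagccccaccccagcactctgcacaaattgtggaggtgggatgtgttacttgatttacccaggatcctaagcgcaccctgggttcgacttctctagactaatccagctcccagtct

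The 250 bases were searched on both strands for 8 motifs of transcription factors. *Capn3* held 1 E-box (CANCTG, 40.3% of 12919 promoters of protein-coding genes) and *Ssbp2* held 1 E-box and 3 GC boxes (GGGCGG, 47.7%), of which 2 share a base. *Dennd2d* held 1 GC box, *Evl* held none of the 8, and *Igfbp4*, not printed, held 1 E-box. No match was found in the 5 windows for the cores of TCF and LEF (CTTTGAT, 2.3% of promoters), FOXO (GTAAACA, 2.4%), ETS (CCGGAAGT, 3.9%), RUNX (TGTGGTT, 3.8%), the GATA family (AGATAA, 7.4%) or AP-1 and BACH (TGANTCA, 4.6%). The GC content was 70.8% for *Ssbp2*, 68.4% for *Igfbp4*, 56.0% for *Dennd2d*, 49.2% for *Evl* and 46.8% for *Capn3*, with a median of 56.0% over all promoters. No motif among those searched was thus found in the windows of all 4 genes that were lower in kTreg cells.

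Some exons are shared with genes on the other strand, and the kit does not mark strand, so reads of a pair cannot be told apart. *Capn3* shares 26.82% of its exonic bases with antisense *Zfp106* and 29.17% with *Gm52968* on its own strand. *Zfp106* had a kTreg minus aTreg difference of -0.07 over both ages (SE 0.17, adjusted p = 0.85). Its means were 1518 in aTreg and 1049 in kTreg cells of young mice, and 1118 and 1532 in old mice. That gap differed between the ages by 1.07 (SE 0.34, adjusted p = 0.32), which was not called. The part of *Zfp106* in the *Capn3* values was not tested. *Dennd2d* shares 12.86% with antisense *Cept1*, a choline and ethanolamine phosphotransferase gene with group means of 1845 to 4264, and 9.83% with *2010016I18Rik*. *Cept1* fell in kTreg against aTreg cells by 0.62 on the log2 scale (SE 0.13, adjusted p = 0.0019, lower in 7 of 8 mice), beside the -1.27 of *Dennd2d*. With age *Cept1* rose by 0.70 in aTreg cells (SE 0.18, adjusted p = 0.029). Its difference with age in kTreg cells was 0.54 (SE 0.18, adjusted p = 0.14) and was not called. The part of *Cept1* in the *Dennd2d* values was not tested. *Ssbp2* shares 20.74% with the antisense RNA *4833422C13Rik* (mean 21.8) and *Evl* 8.42% with *Degs2* (mean 29.0), both scarce, and *Igfbp4* shares none.

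The rTreg libraries took no part in the choice of the first 4 genes, but the low kTreg values that chose them enter any mean of aTreg and kTreg cells, so the next values are a description with no test. rTreg cells were above that mean by 1.65 on the log2 scale for *Capn3*, 0.90 for *Evl*, 0.61 for *Dennd2d* and 0.58 for *Ssbp2*, each in 8 of 8 mice. By the adjusted p and fold rule 3 of 4 passed and *Ssbp2* did not, where 11.9% of all genes were called in either direction, and nothing is read from that count. *Dennd2d* fell under the fold threshold without young kTreg replicate 4 (0.58), old rTreg replicate 2 (0.55) or old kTreg replicate 3 (0.58), and *Ssbp2* passed it without young rTreg replicate 2, young kTreg replicate 2, old rTreg replicate 3, old aTreg replicate 4 or old kTreg replicate 4 (0.59 to 0.64). The aTreg minus rTreg differences, which share aTreg libraries with the choice, were -0.59 for *Capn3*, -0.27 for *Evl*, 0.18 for *Ssbp2* and 0.02 for *Dennd2d*. *Capn3* was lower in aTreg cells in 8 of 8 mice and *Evl* in 7 of 8, while *Ssbp2* was lower in 2 and *Dennd2d* in 4. For *Dennd2d* the distance of rTreg cells from the mean thus came from the kTreg values. The part of the macrophage markers in old rTreg libraries (10200 to 26800, mostly *Lyz2*) in these differences was not tested.

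*Igfbp4* in kTreg cells lay below the mean of aTreg and rTreg cells by a log2 difference of -2.45, lower in 8 of 8 mice, in a comparison where 11.5% of all genes were called. The high rTreg values that chose the gene enter that mean, so this too is a description. Against aTreg cells alone the kTreg difference was -0.61 (SE 0.27), lower in 6 of 8 mice and not called, and it shares aTreg libraries with the choice.

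**Figure D2:**
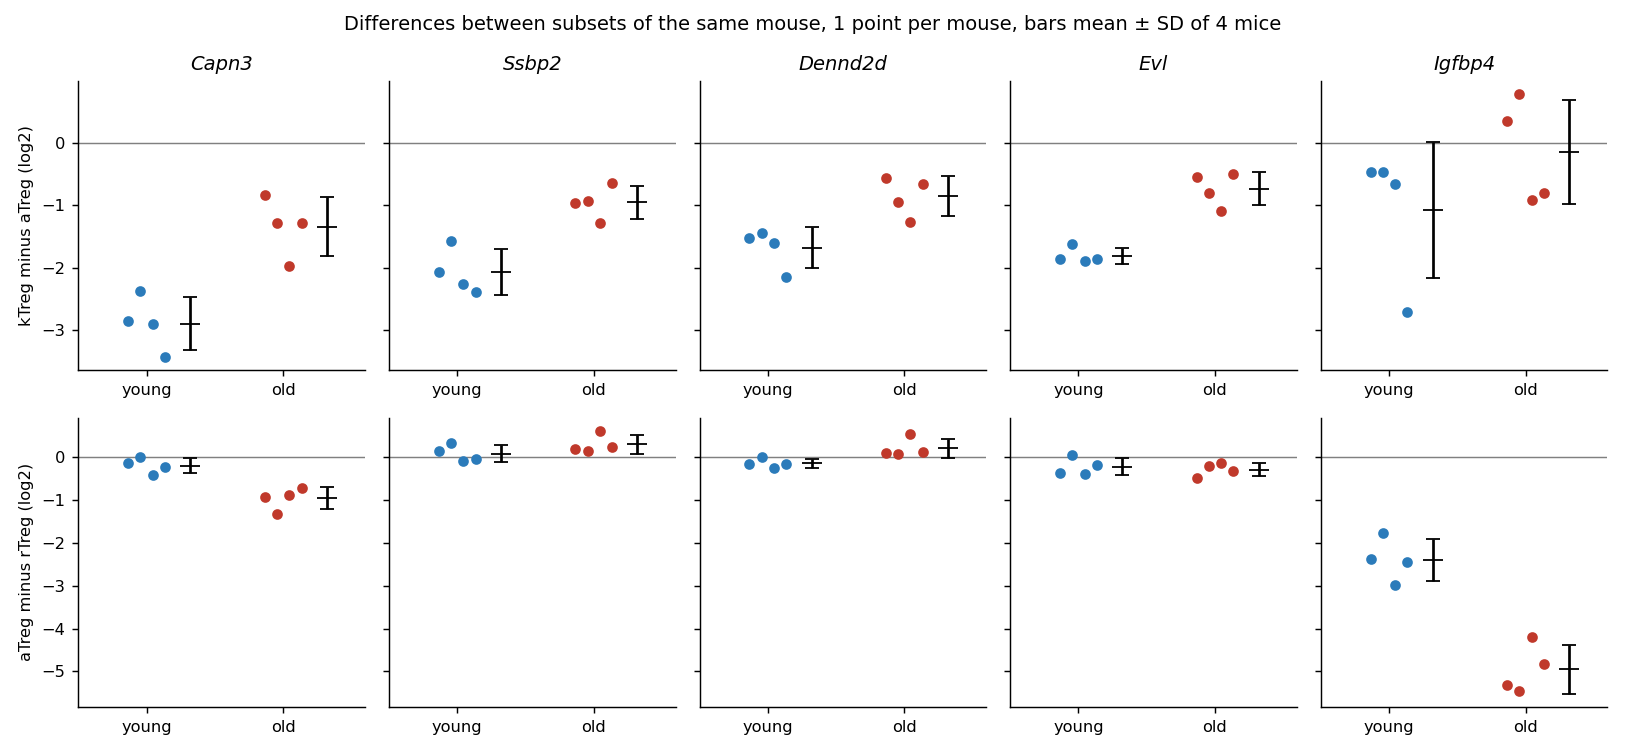
Differences between subsets of the same mouse on the log2(value + 1) scale, kTreg minus aTreg above and aTreg minus rTreg below, with 1 point per mouse and the mean ± SD of 4 mice in black. All 8 points of *Capn3*, *Ssbp2*, *Dennd2d* and *Evl* lie below 0 in the upper row, nearer to 0 in old mice (-1.34, -0.95, -0.86 and -0.73) than in young mice (-2.90, -2.07, -1.68 and -1.81), and *Igfbp4* moves from -2.40 to -4.95 in the lower row.

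Old and young kTreg cells differed in 4 of the 5 genes, where 1.26% of all genes were called. Fitted on the kTreg libraries alone, only *Dennd2d* of the 4 kept its call, and the adjusted p was 0.073 for *Ssbp2*, 0.16 for *Evl* and 0.17 for *Igfbp4*. In the fit of all groups *Ssbp2* rose in old kTreg cells by 1.22 on the log2 scale (SE 0.18, adjusted p = 0.00063), *Dennd2d* by 1.27 (SE 0.15, adjusted p = 0.00012) and *Evl* by 0.70 (SE 0.16, adjusted p = 0.023). In folds these were increases of 2.34, 2.41 and 1.63, and young and old kTreg libraries did not overlap for any of the 3. *Igfbp4* went the other way, with a log2 difference of -1.70 (SE 0.38, adjusted p = 0.026), and the lowest young library, replicate 4 at 211, was just above the highest old one at 185. *Capn3*, low in kTreg cells at both ages, differed by 0.03 (SE 0.24, adjusted p = 0.95), and the sign of that value turned under quantile normalisation and without young kTreg replicate 4 or old kTreg replicate 1. The median over all genes in this comparison was 0.12. Old kTreg libraries carried 2373 to 3678 of the summed macrophage and monocyte markers. Young kTreg replicates 1, 3 and 4 carried 351 to 1169 and replicate 2 carried 35000. The part of these markers in the differences was not tested. Without young kTreg replicate 4 and old aTreg replicate 2 the differences were 1.09 for *Ssbp2*, 1.14 for *Dennd2d*, 0.77 for *Evl* and -2.13 for *Igfbp4*, all 4 called. The call of *Evl* was lost without young kTreg replicate 1 or 3 or old kTreg replicate 1 or 4 (0.61 to 0.69, adjusted p = 0.05 to 0.11), and that of *Igfbp4* without young kTreg replicate 1 or 2 or old kTreg replicate 1, 2 or 4 (-1.71 to -1.42, adjusted p = 0.062 to 0.095). Of the 8 exclusions of a whole mouse, 5 lost the call of *Evl* (adjusted p = 0.06 to 0.15) and 6 that of *Igfbp4* (adjusted p = 0.05 to 0.12).

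In aTreg cells 2 of the 5 genes were called with age, both lower in old mice. *Capn3* was lower in old aTreg cells by 2.87-fold (log2 difference -1.52, SE 0.24, adjusted p = 0.00085), and *Igfbp4* by 6.19-fold (log2 difference -2.63, SE 0.38, adjusted p = 0.00035). Across all genes 2.71% were called, and young and old aTreg libraries did not overlap for either gene. *Dennd2d* differed by 0.45 (adjusted p = 0.13), *Evl* by -0.37 (adjusted p = 0.28) and *Ssbp2* by 0.11 (adjusted p = 0.93). Old aTreg libraries also had less *Foxp3* than young ones (5079 to 19810 against 20350 to 25460). Their sum of 9 sort and Treg markers was lower (54400 to 82330 against 91160 to 100100). Summed NK cell markers were higher in old aTreg libraries (1861 to 4065 against 983 to 1301), but the list was split. *Klrk1* (1149 to 3569 against 289.3 to 438.1) and *Klrb1c* (450.4 to 1288 against 280.7 to 438.9) were higher. *Ncr1* (0 to 22.12 against 30.08 to 123.4), *Eomes* (17.56 to 81.85 against 217.8 to 305.7) and *Tyrobp* (10.33 to 17.31 against 31.18 to 321) were lower, and *Klre1* overlapped. The part of these markers in the age differences was not tested.

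In rTreg cells none of the 5 was called by limma or by edgeR, where limma called 5.83% of all genes. At an unadjusted p under 0.05, 1 of the 5 passed, *Capn3*, with a difference of -0.76 (SE 0.24, adjusted p = 0.063). DESeq2 called this 1 gene (-0.75, adjusted p = 0.016), as did limma after quantile normalisation (-0.82, adjusted p = 0.031) and without young kTreg replicate 4 (-0.76, adjusted p = 0.021), young rTreg replicate 2 (-0.87, adjusted p = 0.047) or old rTreg replicate 3 (-0.89, adjusted p = 0.032). *Evl* differed by -0.31 (SE 0.16), *Ssbp2* by -0.10 (SE 0.18), *Dennd2d* by 0.10 (SE 0.15) and *Igfbp4* by -0.08 (SE 0.38), the last 3 with signs that turned when single libraries were left out.

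**Figure D3:**
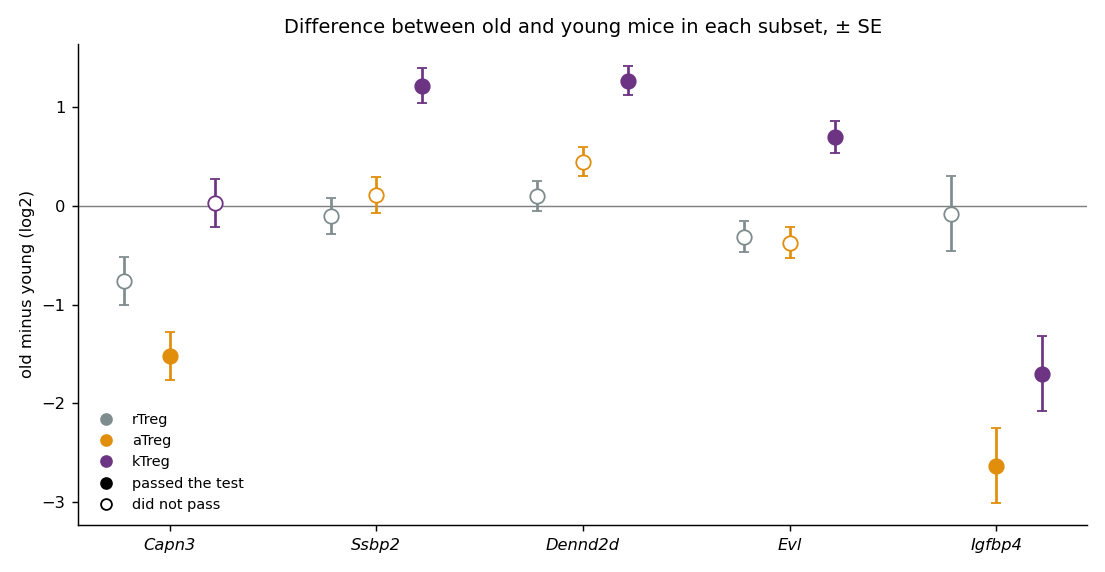
Log2 difference between old and young mice for each gene in rTreg (grey), aTreg (orange) and kTreg cells (purple), with bars of 1 SE from the fit and filled points for differences that passed the test. *Ssbp2*, *Dennd2d* and *Evl* rise in kTreg cells (1.22, 1.27 and 0.70), *Capn3* and *Igfbp4* fall in aTreg cells (-1.52 and -2.63), and no point of rTreg cells is filled.

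Whether the gap between kTreg and aTreg cells itself differed between the ages was tested as an interaction, for which 0.156% of all genes (26) were called. The gap of *Evl* was narrower in old mice by 1.08 on the log2 scale (SE 0.22, adjusted p = 0.046). *Capn3* had the larger value, 1.55 (SE 0.34, adjusted p = 0.079), with *Ssbp2* at 1.12 (SE 0.25, adjusted p = 0.083) and *Dennd2d* at 0.82 (SE 0.21, adjusted p = 0.17), none of them called. *Igfbp4* was at 0.93 (SE 0.54, adjusted p = 0.61). The median over all genes was 0.14. Old aTreg values were lower for *Capn3* and old kTreg values were higher for the other 3 (age differences above). The call of *Evl* was close to its threshold and was lost in 28 of 44 alternatives. Among them were 17 of the 24 single-library exclusions and all 8 exclusions of a whole mouse. Over the alternatives the adjusted p lay between 0.00078 and 0.24 and the values between 0.98 and 1.21. DESeq2 on the recovered reads called *Capn3* (1.51, adjusted p = 0.003), *Ssbp2* (1.12, adjusted p = 0.0044) and *Dennd2d* (0.81, adjusted p = 0.03). Limma also called *Ssbp2* after quantile normalisation (adjusted p = 0.047) and without young kTreg replicate 2 (1.25, adjusted p = 0.028), and *Capn3* without young kTreg replicate 2 (1.67, adjusted p = 0.04) or old aTreg replicate 3 (1.72, adjusted p = 0.045).

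The aTreg minus rTreg gap of *Igfbp4* was wider in old mice by a log2 difference of -2.55 (SE 0.54, adjusted p = 0.021), where 1.56% of all genes were called and the median was 0.10. The other 4 genes had values of -0.76 (*Capn3*, adjusted p = 0.28), 0.35 (*Dennd2d*, adjusted p = 0.44), 0.21 (*Ssbp2*, adjusted p = 0.73) and -0.07 (*Evl*, adjusted p = 0.93). The call of *Igfbp4* was lost without young aTreg replicate 2 or 4 or old aTreg replicate 1 or 2 (-2.47 to -2.25, adjusted p = 0.051 to 0.055). It was also lost in 5 of the 8 exclusions of a whole mouse (adjusted p = 0.055 to 0.088).

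Correlations and spreads of the 5 genes are given as a description. Over the 24 libraries, log2 values of *Ssbp2* and *Dennd2d* had a Pearson correlation of 0.95, *Ssbp2* and *Evl* 0.90, and *Capn3* and *Evl* 0.89, whereas *Igfbp4* had 0.26 with *Dennd2d*, 0.29 with *Ssbp2* and 0.75 with *Capn3*. These values describe libraries of 8 mice that share groups, sorts and depth. After the group means were removed, *Ssbp2* and *Dennd2d* stood at 0.58, *Capn3* and *Igfbp4* at 0.59, *Ssbp2* and *Evl* at 0.46 and *Evl* and *Igfbp4* at -0.12. *Capn3* and *Evl* then stood at 0.03. Within groups the SD of log2 values was 0.06 to 0.31 for *Evl*, 0.09 to 0.29 for *Dennd2d* and 0.10 to 0.34 for *Ssbp2*. *Capn3* had 0.15 to 0.43 and *Igfbp4* 0.17 to 0.95, with its widest spread in young kTreg cells, where the median of all genes tested was also widest at 0.56.

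The genes whose log2 values were most like each of the 5 over the 24 libraries are given as a description. The contrasts that chose the 5 genes enter these correlations too. *Ssbp2* was nearest to *Dennd2d* (0.953), *Bcl2* (0.923), *Tcf7* (0.915), *Scg5* (0.906) and *Tnfrsf26* (0.904), and *Dennd2d* to *Znrf1* (0.958), *Ssbp2* (0.953), *Tcf7* (0.936), *Tnfrsf26* (0.935) and *Prss2* (0.914). *Evl* was nearest to *Pik3ip1* (0.932), *Bcl2* (0.930), *Gpr18* (0.908), *Tcf7* (0.904) and *Prmt3* (0.899). *Tcf7*, which encodes the transcription factor TCF1, was thus among the 5 nearest genes of 3 members, and *Bcl2*, an inhibitor of cell death, of 2. *Capn3* was nearest to *Gpr83* (0.944), *Gpr18* (0.943), *Ccr7* (0.942), the receptor that guides T cells to lymph nodes, *Chchd10* (0.934) and *Hmgn1* (0.930). *Igfbp4* had other neighbours, *Pecam1* (0.942), *Sgk3* (0.931), *Actn1* (0.926), *Gng12* (0.920) and *Sox4* (0.918).

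Other genes of the same families were read from lists. Of 9 calpain genes tested beside *Capn3*, including the inhibitor *Cast*, 1 was called in kTreg against aTreg cells, *Capn1*, which rose by 0.63 on the log2 scale (SE 0.14, adjusted p = 0.0045), where 4.13% of all genes were called higher. None was called between aTreg and rTreg cells by limma, edgeR or DESeq2, and 2 of the 9 had an unadjusted p under 0.05, both lower in aTreg cells. The median of the list in kTreg against aTreg cells was 0.36, against -0.08 over all genes. In aTreg against rTreg cells it was -0.12, against 0.06 over all genes. In kTreg against aTreg cells *Capn2*, the large subunit of the ubiquitous m-calpain, differed by 0.56 (SE 0.12, adjusted p = 0.0036, higher in 7 of 8 mice). This fold change of 1.47 fell short of the fold threshold. *Capns1*, the small subunit, differed by 0.03 in the same comparison (SE 0.14, adjusted p = 0.93).

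Of 13 genes tested beside *Ssbp2* for the SSBP and LDB1 complex, its other SSBP members and *Ldb1* were not called (*Ssbp1* -0.22, *Ssbp3* 0.23, *Ssbp4* -0.09 and *Ldb1* -0.10). The LIM-only partner *Lmo4* fell in kTreg cells by 2.57 (SE 0.58, adjusted p = 0.005), with group means of 1987 in old aTreg and 469 in old kTreg cells, and *Gata1* fell by 2.43 (SE 0.68, adjusted p = 0.02). *Gata3*, a factor of tissue Treg cells, rose by 1.16 (SE 0.10, adjusted p = 2.1e-07, higher in 8 of 8 mice), and *Gata2* was called higher at 1.96 (SE 0.54, adjusted p = 0.019) from means of at most 35.2 in aTreg and kTreg groups. Between aTreg and rTreg cells *Lmo2* fell by 2.12 (SE 0.62, adjusted p = 0.03) and *Gata2* fell by 5.82 (SE 0.54, adjusted p = 4.6e-07). The *Gata2* mean of 1237 in old rTreg cells, against 8.27 in young ones, stood in the libraries with 492 to 981 of summed platelet markers (4 of 6 markers listed). Most of that sum was *Itga2b* (336.5 to 963.7), while *Pf4* (0 to 21.85), *Ppbp* (0 to 100.1) and *Gp5* (0 to 41.06) were low. The part of other cells in the *Gata2* mean was not tested. The list had medians of -0.10 and -0.02 in the 2 comparisons.

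Among 16 genes tested beside *Dennd2d*, the exchange factor gene *Dennd4a* rose in kTreg against aTreg cells by 0.80 (SE 0.20, adjusted p = 0.0096, higher in 8 of 8 mice), and *Dennd4c* rose in aTreg against rTreg cells by 1.63 (SE 0.32, adjusted p = 0.0014, higher in 8 of 8 mice). None of the list was called lower in either comparison by limma, edgeR or DESeq2, none had an unadjusted p under 0.05 as lower in kTreg cells and 1 did as lower in aTreg cells, and the medians were 0.13 and 0.09. Of 24 genes tested beside *Evl*, which include its relatives and actin regulators, *Raph1*, which encodes lamellipodin, an Ena/VASP-binding protein, rose in kTreg cells by 1.29 (SE 0.26, adjusted p = 0.0019) and the formin gene *Fmnl1* by 0.59 (SE 0.11, adjusted p = 0.001), each in 8 of 8 mice. By limma, edgeR and DESeq2 none of the 24 was called lower in kTreg cells, where 1 had an unadjusted p under 0.05 as lower, and none was called between aTreg and rTreg cells, where 11 had an unadjusted p under 0.05. The medians were 0.01 and -0.10. The 1 gene lower in kTreg cells at an unadjusted p under 0.05 was *Skap1*, which encodes an adaptor of T cell adhesion (-0.42, SE 0.09, adjusted p = 0.0025, lower in 8 of 8 mice), and it missed the fold threshold. With 3.26% of all genes called lower, a count of 0 in lists of 16 and 24 is near the background and does not set *Evl* or *Dennd2d* apart.

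Of 10 genes tested of the insulin-like growth factor axis beside *Igfbp4*, 3 were called lower in kTreg than in aTreg cells, where 3.26% of all genes were, with a median of -0.46. *Igfbp7*, another binding protein, fell by 2.11 (SE 0.63, adjusted p = 0.031) at low levels (group means of 27.5 to 130.2), the receptor gene *Igf1r* by 0.65 (SE 0.18, adjusted p = 0.016) and *Igf2r*, the receptor that carries IGF2 to lysosomes, by 0.89 (SE 0.13, adjusted p = 9.8e-05). *Igf2r* also fell in aTreg against rTreg cells by 1.06 (SE 0.13, adjusted p = 1.3e-05, lower in 8 of 8 mice), the 1 gene of the list called there. Its means were 3694 in aTreg and 999 in kTreg cells of young mice, and 1346 and 1406 in old mice. The interaction of *Igf2r* was 2.00 (SE 0.26, adjusted p = 0.002), and it fell with age in aTreg cells by 1.51 (SE 0.18, adjusted p = 6e-05), as *Capn3* and *Igfbp4* did.

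**Figure D4:**
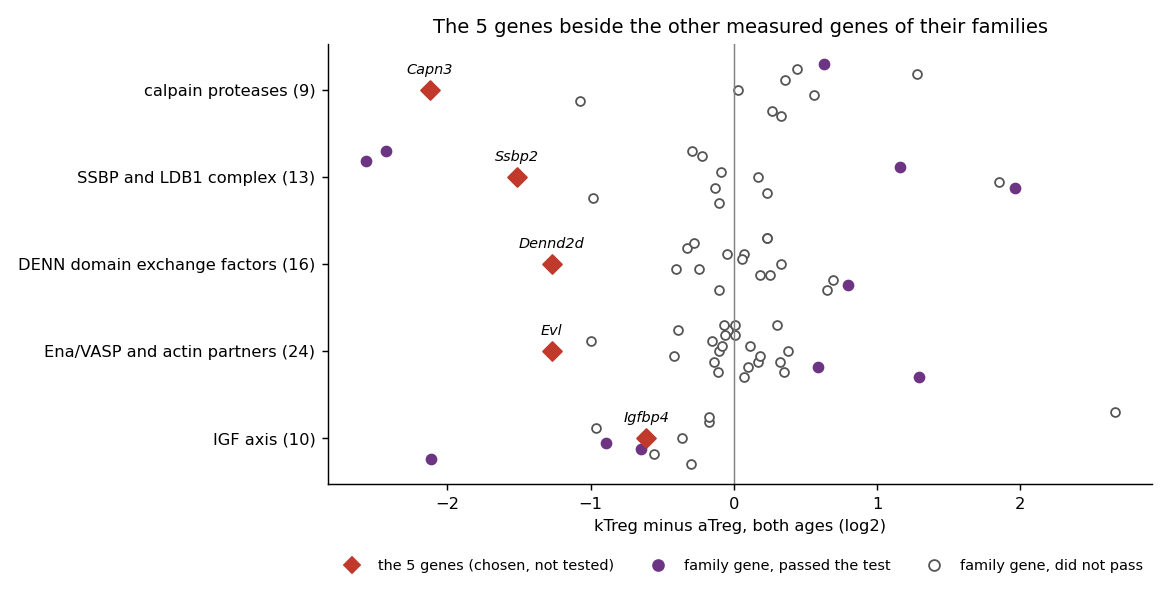
Log2 difference between kTreg and aTreg cells over both ages for the 5 genes (red diamonds) and the other tested genes of their families (circles, purple where they passed the test), with the number of family genes in parentheses. *Capn3* (-2.12), *Dennd2d* (-1.27) and *Evl* (-1.27) lie to the left of 0, as their choice fixed, and *Lmo4* (-2.57) and *Gata1* (-2.43) lie left of *Ssbp2* and *Igfbp7* (-2.11) left of *Igfbp4*.

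A list of 14 genes of resting T cells was read beside the 5, with *Tcf7*, *Bcl2* and *Ccr7* in it. In kTreg against aTreg cells 7 of 14 were called lower and 1 higher, where 3.26% and 4.13% of all genes were. In aTreg against rTreg cells 9 were called lower and 1 higher, where 2.78% and 5.23% of all genes were. *Tcf7* fell in kTreg against aTreg cells by 1.85 (SE 0.16, adjusted p = 2e-07), *Bcl2* by 1.74 (SE 0.14, adjusted p = 7.5e-08) and *Ccr7* by 2.10 (SE 0.20, adjusted p = 5.5e-07). These 3 are among the 7 called lower and do not stand for the list, whose median was -0.59. At an unadjusted p under 0.05, 8 of the 14 were lower and 2 higher. Between aTreg and rTreg cells *Tcf7* (-0.06, adjusted p = 0.9) and *Bcl2* (-0.35, adjusted p = 0.13) were not called. *Bcl2* rose with age in kTreg cells by 1.24 (SE 0.20, adjusted p = 0.0015), near the values of *Ssbp2* (1.22) and *Dennd2d* (1.27). The list as a whole did not rise with age in kTreg cells. Its median there was -0.26 against 0.12 over all genes. Of the 14, 1 was called higher and 1 lower, where 1.26% of all genes were called. The list was put together with earlier results of these data known, so its counts are not independent evidence of a direction.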

How the data were processed

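Sorted cells were turned into cDNA with SMART-Seq v4, a kit that amplifies by PCR and adds no molecular identifiers. The authors aligned reads to GRCm39 with HISAT2 2.2.1, sorted them with SAMtools 1.13, counted them per gene with HTSeq 1.99.2 and used DESeq2 1.44.0, per the submitters' processing notes. The annotation release and the strand setting are not given in the sources used here. The deposited unit is a signal: each count was scaled by its library's size factor, and genes under 100 reads in total are absent. Multiplying back recovered whole reads for 100.0% of values (tolerance 0.001 reads), 15045747 to 29521942 per library. No molecule counts exist, so precision was taken from the spread between mice.

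GENCODE M39 (GRCm39) supplied symbols and positions for 17353 of 17464 identifiers. The main test was limma 3.58.1 with a mean-variance trend (R 4.3.3) on log2(value + 1) over the 6 groups. It covered 16630 genes that reached 10 in 4 or more libraries and was two-sided, with Benjamini-Hochberg adjustment over all of them. Calls required an adjusted p under 0.05 plus a 1.5-fold change. All contrasts share 1 estimate of the spread. The scripts were tested on simulated data. Alternatives were edgeR 4.0.16 and DESeq2 1.42.0 on the recovered reads, other scalings, filters and pseudocounts, the mouse as a block, and leaving out libraries or mice.

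The pairing comes from the study's design text, in which 1 set of 8 mice provided all subsets. Deviations from the group means had median correlations of 0.153 (rTreg and aTreg), 0.091 (rTreg and kTreg) and 0.115 (aTreg and kTreg) within a mouse, against -0.033, -0.034 and -0.051 between mice of 1 age.

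The members and gene lists were chosen with earlier results of these data known. The text names the 5 members, the family genes called in kTreg against aTreg or aTreg against rTreg cells, the 5 genes most like each member, the next gene at each edge of the choice, and sort markers. Other genes were named after their values were seen: *Capn2*, *Capns1*, *Skap1*, the SSBP and LDB1 genes that were not called, the overlapping genes, and *Tcf7*, *Bcl2* and *Ccr7* of the resting T cell list. Single markers of the NK cell, macrophage and platelet lists were also named after their values were seen. The values of 1 gene of that list are not reported here.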

Additional observations from a re-analysis of the deposited data

Results flagged for a closer look

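In 2 of the 30 combinations of gene and group, 1 library stood far from the other 3, and chance alone flags about 1 in 20. *Dennd2d* in old kTreg cells had its lowest value, 1889.8, in replicate 3, and the gap to the next library was 0.863 of the group's range. *Evl* in old aTreg cells had its highest value, 4500.1, in replicate 1, with a gap of 0.896 of a narrow range. A difference between the ages was tested for *Evl* between kTreg and aTreg cells (interaction of 1.08, adjusted p = 0.046) and for *Igfbp4* between aTreg and rTreg cells (interaction of -2.55, adjusted p = 0.021), and both are listed because these tests passed.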

How the results depend on the processing

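Fitted with only the groups compared, the calls of *Ssbp2* (1.22, adjusted p = 0.073), *Evl* (0.70, adjusted p = 0.16) and *Igfbp4* (-1.70, adjusted p = 0.17) between old and young kTreg cells were lost, as was the *Evl* interaction (1.08, adjusted p = 0.066), which was also lost with TMM factors (1.06, adjusted p = 0.065). Counts of genes called then went to 504 in rTreg (970 in the main analysis), 837 in aTreg (451) and 62 in kTreg cells with age (209) and to 16 for the kTreg and aTreg interaction (26). DESeq2 gave 700 in aTreg and 426 in kTreg cells with age, 134 for that interaction and 623 for the aTreg and rTreg interaction (259), and edgeR gave 109 in kTreg cells. By adjusted p alone the counts were 2005 for kTreg against aTreg (1229), 3056 for rTreg (1972) and 3450 for kTreg (1910) against the mean of the other subsets. The cause of these changes was not tested. *Capn3* with age in kTreg cells stood at -0.28 after quantile normalisation.

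Leaving out a library or a mouse gave 416 to 1829 genes with age in rTreg (the highest without young kTreg replicate 4 and old aTreg replicate 2, a pair chosen after seeing the data), 238 to 753 in aTreg and 65 to 320 in kTreg cells, 3 to 52 for the kTreg and aTreg interaction (3 to 5 without young aTreg replicate 2, 3 or 4, young kTreg replicate 3, old aTreg replicate 1 or any old kTreg library) and 25 to 615 for the aTreg and rTreg interaction. Log2 differences ranged from 0.55 to 0.66 for *Dennd2d* in rTreg cells against the others, 0.61 to 0.83 for *Evl* and -2.13 to -1.42 for *Igfbp4* with age in kTreg cells, 0.98 to 1.21 for the *Evl* interaction and -2.87 to -2.25 for the *Igfbp4* interaction. Signs turned for values near 0: with age in rTreg cells *Ssbp2* (-0.22 to 0.03), *Dennd2d* (-0.02 to 0.20) and *Igfbp4* (-0.21 to 0.05), *Capn3* in kTreg cells (-0.17 to 0.15), and *Evl* in the aTreg and rTreg interaction (-0.15 to 0.05).

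A replicate block for the mouse gave 1332 calls between kTreg and aTreg cells and 29 for their interaction, where *Evl* had an adjusted p of 0.025. The block changed no call of the 5 genes and moved no count by more than 1.5 times. The fewest reads behind a member's value were 61 (*Capn3*, young kTreg cells), which is where counting error was largest.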
